A study of Mus musculus with 16 samples.

Results

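The galectins other than galectin-7 and their near relatives were examined here as 8 genes: Lgals1, Lgals3, Lgals4, Lgals8, Lgals9 and Lgals12, the binding protein gene Lgals3bp and the galectin-like gene Lgalsl. They were taken by symbol, whatever their values, from the 25719 gene identifiers that every library listed, and all 8 were found. Of these 8, 7 passed the filter on low counts and entered the test, which covered 15109 genes in all; Lgals12 did not. RNA was sequenced from whole trigeminal ganglia of mice, in 16 libraries of 1 ganglion each. The 4 groups of 4 libraries were wild-type (WT) and Nogo-A knockout (KO) embryos at embryonic day 14 (E14), and WT and KO mice at postnatal day 25 (P25). The knockout lacks Nogo-A, the long protein made from Rtn4 that is known to restrain neurite growth. The labels name no allele, strain, sex or treatment. The study asked what the loss of Nogo-A does to this ganglion at each stage.

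Galectins are lectins that bind β-galactosides, sugars carried on many cell surface and matrix glycoproteins. They are made in the cytosol, leave the cell without a signal peptide, and outside it cross-link glycoproteins into lattices; inside the cell some of them recognise damaged vesicles. Galectin-1 has a single type of sugar-binding domain and forms dimers, galectin-3 joins such a domain to a flexible tail, while the products of Lgals4, Lgals8, Lgals9 and Lgals12 hold a pair of linked domains. In peripheral nerve, galectin-1 is known for promoting axon regrowth and galectin-3 for its part in myelin uptake after injury.

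Library totals ran from 15532373 to 29562379 estimated counts. Levels are CPM, counts scaled to a common library total after each total was multiplied by its TMM scaling factor from edgeR. These factors ran from 0.855 in E14 WT replicate 2 to 1.11 in E14 WT replicate 4, so CPM differ from counts over plain library totals. SD is the standard deviation among the 4 libraries of a group. The targeted gene Rtn4 stood at 360 ± 164 CPM in E14 WT, 298 ± 74.7 CPM in E14 KO, 489 ± 58.7 CPM in P25 WT and 368 ± 17.9 CPM in P25 KO. A gene total adds the transcripts for all Nogo proteins, so these values do not check the knockout label. All 10 sensory neuron markers examined were detected in each group, with a summed level of 9174 to 18284 CPM per library. E14 WT replicate 2 stood apart from its group, with a mean correlation of 0.943 to its other libraries against 0.970 to 0.992 for the remaining 15. The names of E14 WT replicates 2 and 4, and of E14 KO replicates 1 and 3, share a ganglion number and differ in the letter R or L, so each pair may come from 1 animal. The p-values therefore measure the spread between ganglia, which is not in every case the spread between animals.

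Most of the 7 tested galectin genes differed between the stages, as did most of all genes tested, and 5 of the 7 were called higher at P25 in both genotypes. Between E14 and P25, Lgals1, Lgals3, Lgals3bp, Lgals8 and Lgals9 rose in WT ganglia and also in KO ganglia, by 1.08 to 3.52 on the log2 scale. Lgalsl fell in both genotypes. Lgals4 did not pass the test in either genotype, and Lgals12 had at most 4 counts in any library. In WT, 6 of the 7 tested members passed the test and in KO 6 of 7, beside 59.6% and 59.8% of all genes tested. In WT, 5 of the 7 tested members were higher at P25 at an adjusted p under 0.05, where 29.7% of all genes tested were, and 1 was lower, where 29.8% were. In KO the counts were again 5 higher and 1 lower, beside 30.6% and 29.2% of all genes tested. These counts describe the members and are no test of the family, and Lgals3 entered the test only through its P25 counts. The median log2 fold change of the 7 tested members was 1.5 in WT and 1.21 in KO, against 0.00 and 0.01 over all genes tested. Of the 7 tested members, the 5 called higher also lay higher at P25 without overlap in both genotypes, and Lgalsl lay lower without overlap in KO alone. The calls and the overlap use the same values, so the lack of overlap is no second support for the calls. Of all genes tested, 26.1% in WT and 30.5% in KO lay higher at P25 without overlap, and 24.2% and 29.3% lower.

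**Figure D1:**
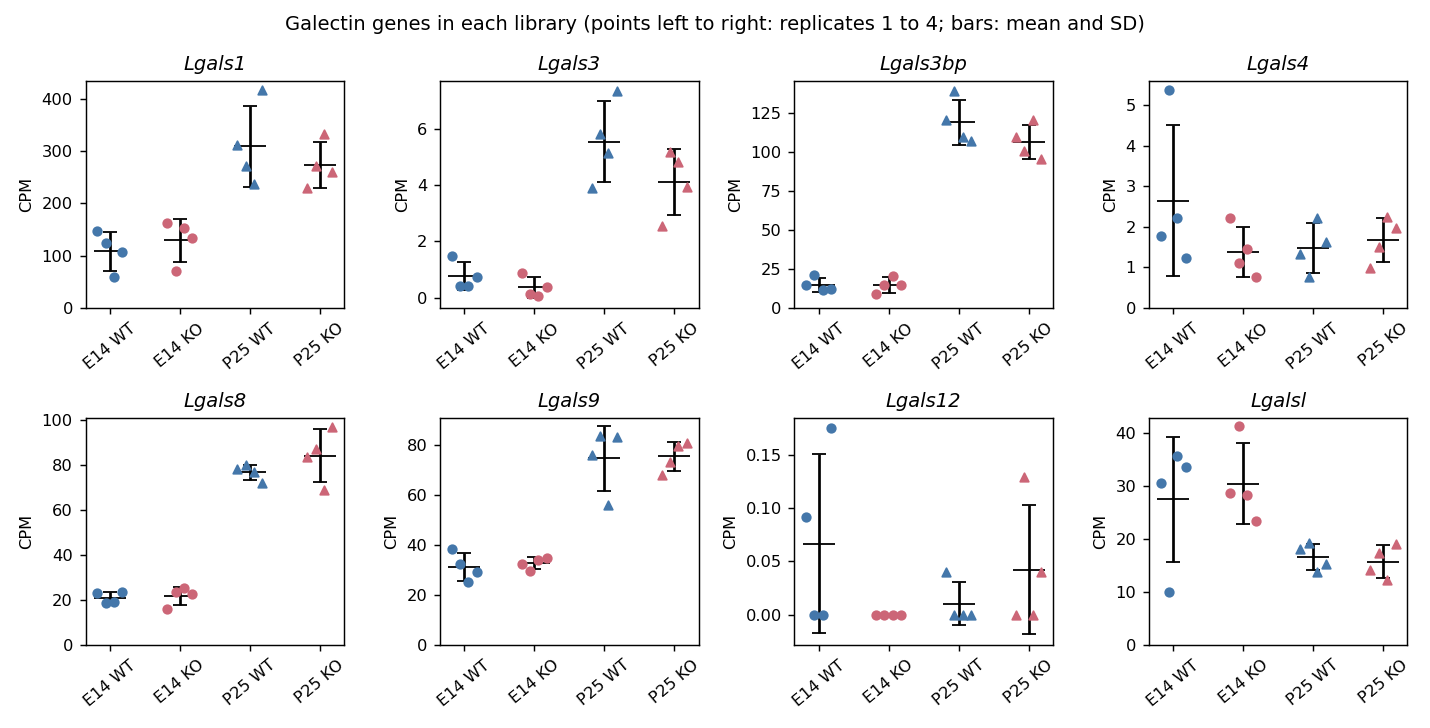
CPM of the 8 galectin genes in each of the 16 libraries, by group (points are replicates 1 to 4 from left to right, bars the mean and SD over 4 libraries). Lgals1, Lgals3, Lgals3bp, Lgals8 and Lgals9 sit higher at P25 in both genotypes without overlap between stages, while Lgals4 overlaps throughout and Lgals12 stays at or near 0.

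Lgals1 (ENSMUSG00000068220), the gene of galectin-1, lies on chromosome 15 (78926725 to 78930465, plus strand, GRCm38). In E14 WT ganglia its 4 libraries held 147, 123, 58.7 and 106 CPM, and in P25 WT ganglia 311, 270.4, 238 and 416 CPM. In E14 KO they held 162, 69.99, 152 and 133 CPM, and in P25 KO 228, 272, 333 and 259 CPM. The lowest P25 library of each genotype was above the highest E14 library of that genotype. The rise from E14 to P25 was 1.5 on the log2 scale in WT (SE 0.27, edgeR adjusted p = 8.05e-05) and 1.08 in KO (SE 0.27, adjusted p = 0.00173). E14 WT replicate 3 and E14 KO replicate 2 were the low libraries of their groups. Pseudogene copies of Lgals1 were not analysed here, so reads shared with them would be counted to an uncertain extent.

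Lgals3 (ENSMUSG00000050335), on chromosome 14 (47367751 to 47386160, plus strand, GRCm38), encodes galectin-3, which macrophages make in quantity. It was low in E14 ganglia, with 32, 7, 7 and 17 counts in WT and 14, 3, 1 and 8 counts in KO. Those counts correspond to 0.759 ± 0.497 CPM (SD, n = 4) and 0.366 ± 0.372 CPM. At P25 Lgals3 stood at 3.91, 5.82, 5.13 and 7.34 CPM in WT, and at 2.55, 5.17, 4.84 and 3.93 CPM in KO. All P25 libraries were above all E14 libraries. From E14 to P25 the gene rose by 2.83 on the log2 scale in WT (SE 0.47, edgeR adjusted p = 3.79e-05) and by 3.52 in KO (SE 0.53, adjusted p = 9.62e-06). The gene reached 10 counts in 2 of 4 E14 WT libraries and 1 of 4 E14 KO libraries, so it passed the filter through the stage in which it was high.

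Lgals3bp (ENSMUSG00000033880) encodes a secreted glycoprotein that binds galectin-3 and is itself no galectin, and it is known as interferon inducible. The gene lies on chromosome 11 (118392751 to 118402092, minus strand, GRCm38). It held 14.5, 21.0, 11.4 and 12 CPM in E14 WT and 120.2, 139, 109 and 107 CPM in P25 WT. It held 8.72, 14.8, 20.8 and 15 CPM in E14 KO and 109, 100.5, 120 and 95.1 CPM in P25 KO. The P25 libraries were all several times higher than any E14 library. The rise of 3.02 on the log2 scale in WT (SE 0.24, edgeR adjusted p = 1.70e-09) was the highest fitted value among the 7 tested members in that genotype (its difference from the Lgals3 value was not tested), and in KO the rise was 2.84 (SE 0.24, adjusted p = 3.80e-09). Its share of the summed level of the 8 genes per kilobase of median transcript went from 8.55% to 23.7% in WT and from 7.64% to 23.4% in KO. With the longest transcript of each gene the WT shares were 3.51% and 9.79%, and with the shortest 10.9% and 27.7%.

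Among the galectins with paired domains, Lgals8 (ENSMUSG00000057554; chromosome 13, 12439415 to 12464944, minus strand, GRCm38) encodes galectin-8, which detects damaged vesicles and recruits autophagy receptors. Its E14 WT libraries held 22.8, 18.5, 19.1 and 23.3 CPM and its P25 WT libraries 78.3, 79.9, 76.9 and 72.2 CPM. In KO it went from 16.1, 23.4, 25.1 and 22.6 CPM to 83.5, 87.3, 68.6 and 96.9 CPM. All P25 libraries were above all E14 libraries, and the rise was 1.87 on the log2 scale in WT (SE 0.17, edgeR adjusted p = 1.11e-08) and 1.95 in KO (SE 0.17, adjusted p = 6.60e-09).

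Lgals9 (ENSMUSG00000001123; chromosome 11, 78962974 to 78984946, minus strand, GRCm38) encodes galectin-9, a ligand of the immune receptor TIM-3 and known to be induced by interferon in several cell types. It held 38.2, 32.3, 25.0 and 29.3 CPM in E14 WT, and 76.0, 83.4, 55.7 and 83.2 CPM in P25 WT. In KO it held 32.3, 29.5, 33.9 and 34.7 CPM at E14 and 67.9, 73.0, 79.4 and 80.6 CPM at P25. The stages did not overlap in either genotype. Lgals9 rose by 1.26 on the log2 scale in WT (SE 0.17, edgeR adjusted p = 2.39e-06) and by 1.21 in KO (SE 0.17, adjusted p = 3.98e-06).

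Lgals4 (ENSMUSG00000053964; chromosome 7, 28833854 to 28841708, plus strand, GRCm38), the gene of galectin-4 of intestinal epithelium, showed no stage difference that passed the test. It held 1.79, 5.37, 2.22 and 1.23 CPM in E14 WT and 1.33, 0.759, 2.22 and 1.62 CPM in P25 WT. Its KO libraries held 2.21, 1.12, 1.46 and 0.762 CPM at E14 and 0.988, 1.51, 2.24 and 1.98 CPM at P25. E14 WT replicate 2 was the highest of the 16 libraries for this gene, and the other 15 held 2.24 CPM or less. The log2 fold change was -0.81 (95% interval -1.75 to 0.12, edgeR adjusted p = 0.125) in WT and 0.29 (-0.67 to 1.25, adjusted p = 0.606) in KO. Without E14 WT replicate 2 the WT value was -0.22. Some mouse strains carry a near-identical copy of Lgals4, Lgals6, which was not analysed here, so the counts of Lgals4 are uncertain. The 5 intestinal epithelial markers examined summed to at most 0.516 CPM in any library.

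Lgals12 (ENSMUSG00000024972; chromosome 19, 7596660 to 7607193, minus strand, GRCm38), the adipocyte galectin, held 2, 0, 0 and 4 counts in E14 WT and 0 in each of the 4 E14 KO libraries. It held 1, 0, 0 and 0 counts in P25 WT and 0, 3, 0 and 1 counts in P25 KO. With 0 counts in E14 KO, a level of up to 0.0398 CPM (3 counts over the group) is allowed, for counting error only. No difference was detectable at this depth: two-sided exact permutation tests of the 4 comparisons gave p from 0.429 to 0.714, and 4 against 4 libraries cannot go below 0.0286. Adipocyte markers were also near 0, with a sum over 5 genes of at most 0.506 CPM in any library.

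Lgalsl (ENSMUSG00000042363), on chromosome 11 (20823576 to 20831056, minus strand, GRCm38), encodes a galectin-like protein that is not known to bind lactose-type sugars. It was the member that fell. Its E14 WT libraries held 30.7, 10.0, 35.7 and 33.7 CPM and its P25 WT libraries 18.2, 19.3, 13.8 and 15.3 CPM. Its E14 KO libraries held 28.7, 41.4, 28.3 and 23.5 CPM and its P25 KO libraries 14.2, 17.3, 12.3 and 19.1 CPM. In KO the stages did not overlap, while in WT replicate 2 of E14 lay below all P25 libraries. The log2 fold change was -0.73 in WT (SE 0.29, edgeR adjusted p = 0.0357) and -0.95 in KO (SE 0.29, adjusted p = 0.00795). The WT call rests on these 16 libraries: it was -1.0 without E14 WT replicate 2 (adjusted p = 0.000149), and it was not called without any 1 of 11 other libraries, where the adjusted p reached 0.151, with no low-count filter (adjusted p = 0.0550) or with only the 2 WT groups in the fit (adjusted p = 0.0790). In KO the call held without each library in turn.

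**Figure D2:**
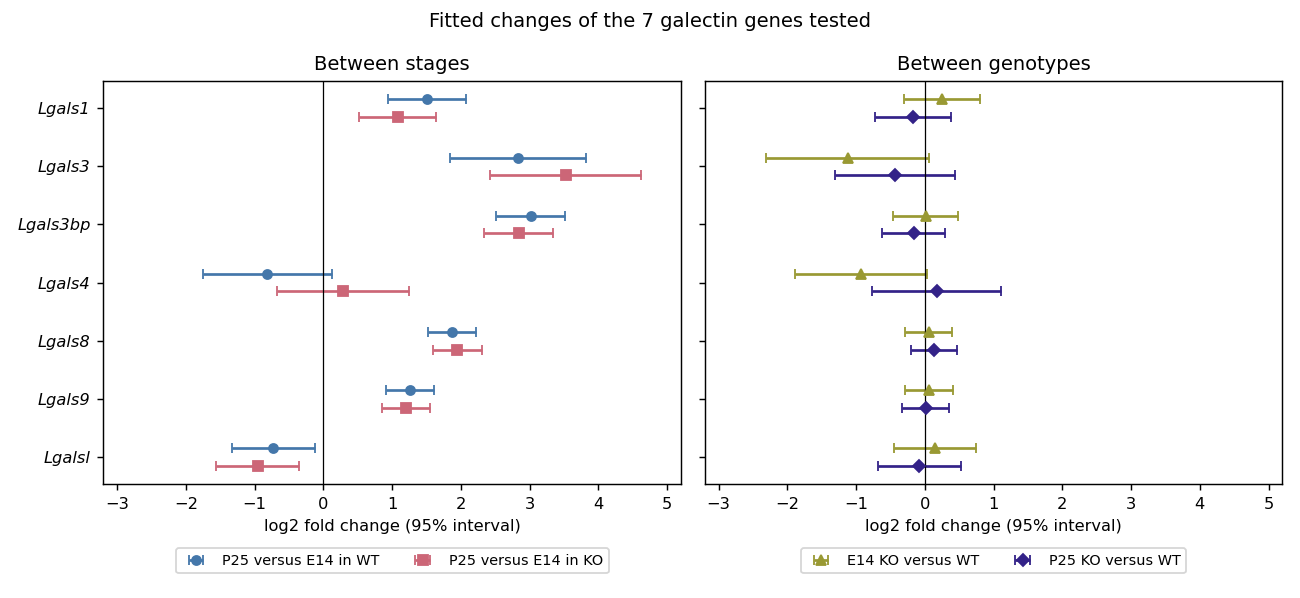
Fitted log2 fold changes of the 7 galectin genes tested, with 95% intervals, by comparison: KO over WT at each stage in one panel and P25 over E14 in each genotype in the other. Intervals of the genotype comparisons all span 0, while those of Lgals1, Lgals3, Lgals3bp, Lgals8 and Lgals9 lie above 0 for stage in both genotypes.

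The promoters of 3 members that changed with stage are printed to show the letters around their gene starts. RefSeq (GRCm38.p6) promoters run from 250 bases before the gene start to 50 after it, and 6 of the 8 members have an entry. They are written 5′ to 3′ on the gene's strand, with every match to 7 searched motifs in capitals, on either strand. The interferon response element was searched as GAAANNGAAA and, after these sequences had been seen, also with a wider spacer as GAAANNNGAAA. The AP-1 site of stimulus-induced genes was searched as TGANTCA. The E-box bound by many helix-loop-helix factors was searched as CACGTG. The CCAAT box, a common element upstream of start sites, was searched under the letters of its name. The GC box bound by Sp family factors was searched as GGGCGG. The TATA box that positions the start of transcription was searched as TATAAA. No matches overlapped in these promoters. Lgals9 and Lgals3bp are the members known to respond to interferon, and Lgalsl is the one that fell.
Lgals9 (chr11:78984875-78985174, minus strand): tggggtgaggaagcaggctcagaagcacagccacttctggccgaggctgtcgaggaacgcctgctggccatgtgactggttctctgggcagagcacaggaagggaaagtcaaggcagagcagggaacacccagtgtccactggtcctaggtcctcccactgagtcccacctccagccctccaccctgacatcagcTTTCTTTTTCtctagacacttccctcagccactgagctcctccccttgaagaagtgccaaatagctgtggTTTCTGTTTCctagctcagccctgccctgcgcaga
Lgals3bp (chr11:118401910-118402209, minus strand): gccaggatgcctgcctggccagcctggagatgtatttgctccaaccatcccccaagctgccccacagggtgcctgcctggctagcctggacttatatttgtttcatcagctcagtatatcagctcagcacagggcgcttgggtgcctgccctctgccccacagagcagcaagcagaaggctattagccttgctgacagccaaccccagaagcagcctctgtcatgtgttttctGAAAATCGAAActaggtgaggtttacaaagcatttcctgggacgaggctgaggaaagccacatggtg
Lgalsl (chr11:20831059-20831358, minus strand): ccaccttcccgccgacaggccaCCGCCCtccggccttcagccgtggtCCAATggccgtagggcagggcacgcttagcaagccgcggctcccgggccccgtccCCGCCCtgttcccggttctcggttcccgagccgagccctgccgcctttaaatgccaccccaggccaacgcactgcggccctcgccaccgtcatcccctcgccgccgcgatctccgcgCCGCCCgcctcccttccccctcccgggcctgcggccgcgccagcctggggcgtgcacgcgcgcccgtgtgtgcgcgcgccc
In the Lgals9 promoter the letters GAAANNGAAA match in 2 places, their first bases 55 bases upstream and 15 bases downstream of the start, and no other searched motif matched. Among all 32851 promoters of the table, 3.44% hold this motif. The Lgals3bp promoter does not hold GAAANNGAAA. It holds the form with the wider spacer once, its first base 17 bases upstream, and no other searched motif matched. That form is found in 2.75% of all promoters. It was added after these sequences had been seen, so this share does not measure how unusual the match is. The letters searched for the AP-1 site, the E-box and the TATA box, found in 7.81%, 7.15% and 13.6% of all promoters, are in none of these 3 windows. The Lgalsl promoter holds 3 GC boxes, 228, 148 and 31 bases upstream, and a CCAAT box 203 bases upstream, motifs found in 35.7% and 37.4% of all promoters. It is 76.3% G or C, against 55% for Lgals3bp, 58% for Lgals9 and a median of 52.7% over all promoters. A match is a description of letters and not a measured binding site.

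None of the 7 tested galectin members was called between KO and WT ganglia at either stage. At E14, 0 of the 7 tested members passed the test, where 0.0199% of all genes tested did, and at P25 0 of 7, where 0.0463% did. With so few calls over all genes, 0 of 7 does not show that the members were unchanged. DESeq2 also called 0 of them, and no member had an unadjusted p under 0.05 at either stage. The libraries of KO and WT overlapped for each of the 8 members at both stages; of all genes tested, 1.63% did not overlap at E14 and 3.32% at P25. Of the other galectin family genes, Lgals2 and Grifin did not pass the filter, with at most 11 and 10 counts in any group of 4 libraries. Lgals7, the gene of galectin-7, was lower in KO at both stages, with edgeR adjusted p-values of 0.0111 at E14 and 0.00146 at P25. The E14 call was lost without E14 WT replicate 1, without E14 KO replicate 1, 2 or 3, or without P25 KO replicate 4, with adjusted p-values up to 0.114.

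The limits of the genotype comparison differ between members. The 95% intervals of the KO minus WT log2 change were narrow for Lgals8 (-0.29 to 0.40 at E14 and -0.21 to 0.47 at P25) and for Lgals9 (-0.28 to 0.41 and -0.33 to 0.36). They were wider for Lgals1 (-0.31 to 0.80 and -0.73 to 0.37), Lgals3bp (-0.46 to 0.49 and -0.62 to 0.30) and Lgalsl (-0.45 to 0.74 and -0.68 to 0.52). The members with the lowest counts among those tested, Lgals3 and Lgals4, had the widest intervals. Lgals3 stood 1.12 lower in KO at E14 on the log2 scale (interval -2.31 to 0.06, edgeR unadjusted p = 0.0606, adjusted p = 0.942), a value that was -0.56 without E14 WT replicate 1 and -1.93 without E14 KO replicate 1. Lgals4 had a log2 change of -0.93 at E14 (interval -1.89 to 0.03, unadjusted p = 0.0561, adjusted p = 0.942), and it was -0.34 without E14 WT replicate 2. At P25 the log2 changes of Lgals3 and Lgals4 were -0.43 (-1.30 to 0.44) and 0.17 (-0.77 to 1.11). Of the macrophage list, 14 of 15 markers had a negative KO minus WT change at E14 and none was called. Over all genes tested, 43.3% had a positive change at E14. At P25, 12 of the 15 markers were negative and none was called, and 46.4% of all genes tested were positive. The summed level ran from 91.2 to 153 CPM in E14 WT and from 72.4 to 97.2 CPM in E14 KO. The part of these markers in the Lgals3 value was not tested.

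The stage change was also compared between genotypes. In the interaction term 0 of the 7 members passed the test (edgeR adjusted p from 0.993 to 0.998), and across all genes tested 0 did, with 647 at an unadjusted p under 0.05 and 8 by DESeq2. The difference of the stage change, KO minus WT, was -0.42 for Lgals1 (95% interval -1.21 to 0.36), 0.70 for Lgals3 (-0.76 to 2.15) and 1.10 for Lgals4 (-0.24 to 2.45). It was -0.18 for Lgals3bp (-0.84 to 0.48), 0.07 for Lgals8 (-0.41 to 0.56), -0.05 for Lgals9 (-0.54 to 0.44) and -0.23 for Lgalsl (-1.07 to 0.62). Single libraries moved these values: without E14 WT replicate 2 the Lgals4 value was 0.51. The Lgals3 value was 0.13 without E14 WT replicate 1, 0.34 and 0.37 without E14 KO replicates 3 and 2, and 1.5 without E14 KO replicate 1. The Lgals1 value was -0.67 without E14 KO replicate 2, -0.65 without E14 WT replicate 1, -0.26 without E14 WT replicate 3 and -0.25 without P25 WT replicate 4.

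Marker genes of several cell types also changed between the stages, in both directions, and fewer cells of a type and less RNA per cell cannot be told apart in whole ganglia. All 15 macrophage markers were detected in each group, and their summed level ran from 91.2 to 153 CPM in E14 WT and from 331 to 393 CPM in P25 WT, and from 72.4 to 97.2 and from 273 to 384 CPM in KO; 13 of the 15 were called higher in WT and 15 of 15 in KO, beside 29.7% and 30.6% of all genes tested. Of 8 Schwann cell markers, 7 were called higher at P25 in each genotype, and their sum ran from 755 to 1214 CPM in the 8 E14 libraries and from 21544 to 43907 CPM in the 8 P25 libraries. Of 7 satellite glia markers, 4 were called higher and 2 lower in each genotype. Of 10 sensory neuron markers, 3 were called higher and 4 lower in WT, and 4 higher and 4 lower in KO. Of 6 endothelial markers, 1 was called higher in each genotype, and 5 were called lower in WT and 4 in KO, beside 29.8% and 29.2% of all genes tested that were lower. The part of these cells in the galectin changes was not tested.

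Most interferon-stimulated genes rose from E14 to P25, as Lgals3bp and Lgals9 did. Of 12 such genes, 11 were called higher in WT (median log2 change 3.39), beside 29.7% of all genes tested. In KO 8 were called higher (median 2.39), beside 30.6%. None was called lower, and their summed level at E14 was 105 to 135 CPM. Without P25 WT replicate 2, 10 of the 12 were called higher in WT, and the median was 2.82. Between genotypes at P25, all 12 had a negative KO minus WT change, with a median log2 change of -0.58, where 46.4% of all genes tested were positive. Of the 12, edgeR and DESeq2 each called 0, with 2 at an unadjusted p under 0.05. Without P25 WT replicate 2, 5 of the 12 were negative and the median was 0.08. That library stood out: the summed level over the 12 genes was 171, 456, 168 and 178 CPM in P25 WT and 184, 168, 179 and 165 CPM in P25 KO. Replicate 2 of P25 WT also held the highest Lgals3bp of the 8 P25 libraries (139 CPM) and the highest Lgals9 (83.4 CPM, next to 83.2 CPM in replicate 4). Without that library the P25 KO minus WT log2 change was -0.08 for Lgals3bp, in place of -0.16, and 0.07 for Lgals9, in place of 0.01. The part of interferon-stimulated expression in the stage and genotype values of Lgals3bp and Lgals9 was not tested.

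**Figure D3:**
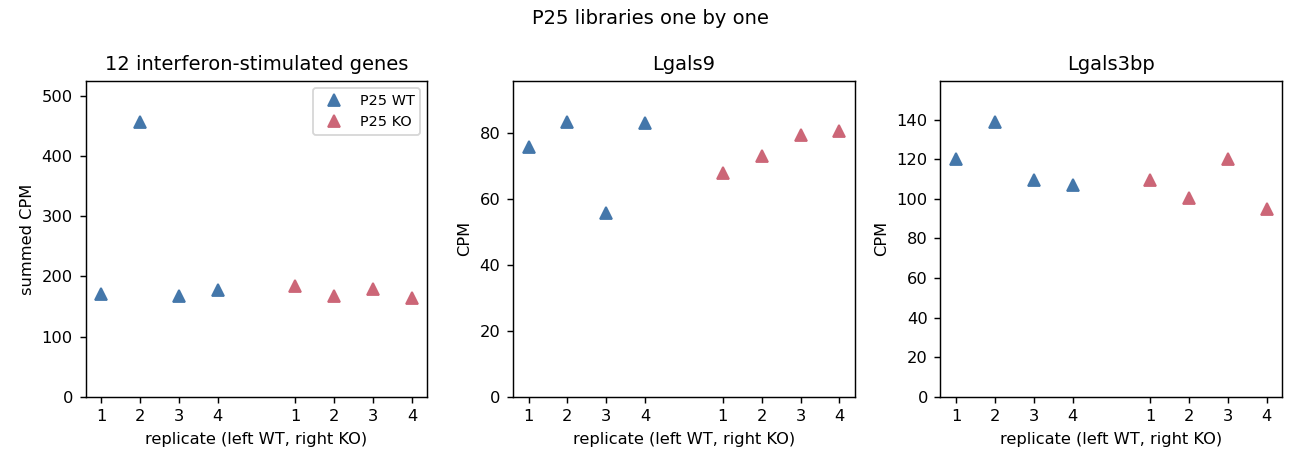
The summed CPM of 12 interferon-stimulated genes and the CPM of Lgals3bp and Lgals9 in the 8 P25 libraries, 4 WT and 4 KO. P25 WT replicate 2 is the high library on the interferon sum, at 456 CPM against 165 to 184 CPM in the other 7, and has the highest values of both genes.

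To compare levels between genes, CPM were divided by the median transcript length in kilobases. In E14 WT the order was Lgals1 (152 CPM per kb), Lgalsl (39.4), Lgals9 (24.0), Lgals3bp (21.4), Lgals8 (9.36), Lgals4 (3.34), Lgals3 (0.884) and Lgals12. In P25 WT it was Lgals1 (432 CPM per kb), Lgals3bp (173), Lgals9 (57.5), Lgals8 (34.3), Lgalsl (23.8), Lgals3 (6.46), Lgals4 (1.87) and Lgals12. Lgals1 made up 60.7% of the summed level per kb in E14 WT and 59.3% in P25 WT, and 63.9% and 57.8% in KO, and it was the highest member in each of the 4 groups. Over the groups its share was 72.2% to 78.2% with the longest transcripts and 36.2% to 46.6% with the shortest. At P25 no neighbours in the order overlapped in their libraries. At E14, Lgals9 and Lgals3bp overlapped in both genotypes, as did Lgals4 and Lgals3, and in WT also Lgalsl and Lgals9. With the longest transcript of each gene in place of the median one, the Lgalsl level in E14 WT was 8.19 CPM per kb. In P25 KO, Lgals9 (47.4 CPM per kb) then stood above Lgals3bp (45.6). Lgals1 stayed first and Lgals12 last with the median, the longest and the shortest length, and the middle of the order changed with the length.

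**Figure D4:**
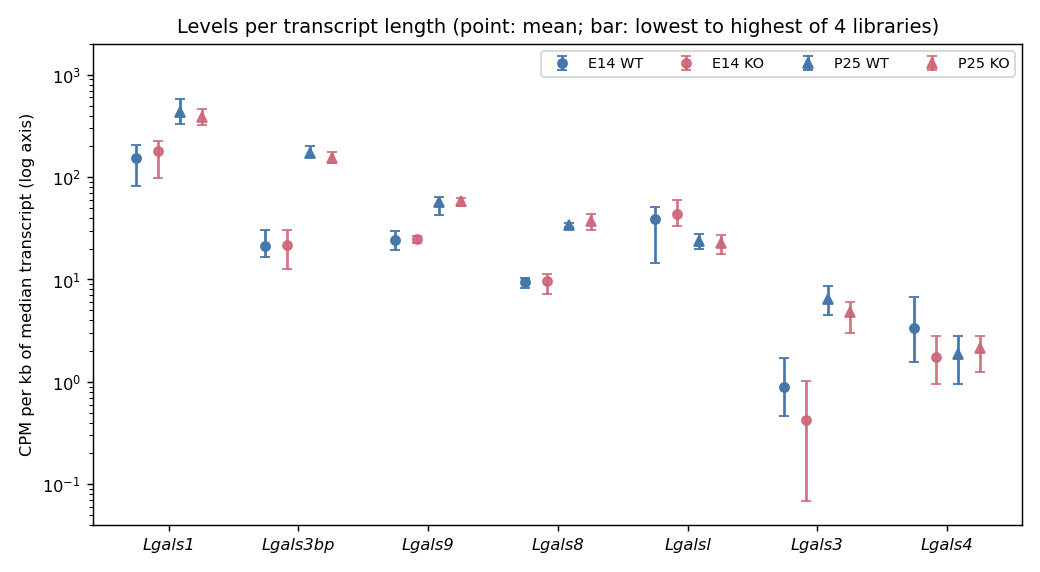
Level per kilobase of median transcript (log axis) of 7 galectin genes in the 4 groups; points are means and bars run from the lowest to the highest of 4 libraries. By this length, Lgals1 is highest in all groups, and Lgals3bp is the second highest at P25 but not at E14.

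Of 16 genes that build galectin ligands, all tested, 4 rose and 6 fell with stage in WT, where 29.7% of all genes tested rose and 29.8% fell, and 5 rose and 3 fell in KO, where 30.6% rose and 29.2% fell. Their median log2 change was -0.04 and 0.06, against 0.00 and 0.01 for all genes. Gcnt2, which adds branches to poly-N-acetyllactosamine chains, rose from 52.5 ± 5.82 to 338 ± 46.2 CPM (SD, n = 4) in WT, a log2 change of 2.69, and by 2.33 in KO. B3gnt2, which lengthens those chains, rose from 10.04 ± 2.03 to 36.2 ± 4.77 CPM in WT (1.85) and by 1.86 in KO. St6gal1, a sialyltransferase whose α2,6 cap is known to block galectin binding, rose by 0.66 in WT and 0.81 in KO. C1galt1c1, the chaperone of the O-glycan core galactosyltransferase, rose by 1.12 in WT, with a value of 0.76 in KO that missed the test (edgeR adjusted p = 0.0545). Mgat5, which branches N-glycans, rose by 0.51 in KO, with a value of 0.34 in WT (adjusted p = 0.180).

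Among those that fell, Mgat4b, another N-glycan branching enzyme, went from 282 ± 107.6 to 104 ± 16.7 CPM in WT, a log2 change of -1.44, and -1.14 in KO. St3gal1, which caps core O-glycans with sialic acid, changed by -1.36 in WT and -1.0 in KO. Gcnt1, which branches O-glycans, changed by -1.15 and -1.37, and Man2a1, a Golgi mannosidase that trims N-glycans, by -0.95 in WT, with a value of -0.01 in KO (edgeR adjusted p = 0.978). The call of Gcnt1 in WT was lost without any 1 of 4 libraries, and those of Man2a1 in WT and Mgat5 in KO without any 1 of 5 (edgeR adjusted p up to 0.105, 0.158 and 0.127). In WT 3 list genes fell in place of 6 without E14 WT replicate 4, P25 WT replicate 3 or P25 WT replicate 4, and in KO 3 rose in place of 5 without E14 KO replicate 1, P25 KO replicate 1 or P25 KO replicate 3. No gene of the list passed the test between genotypes at either stage, with median KO minus WT changes of -0.23 at E14 and 0.04 at P25.

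Of 22 known binding partners of galectins, 21 were tested, Havcr2 (TIM-3) being left out at group means of 0.108 to 0.199 CPM. In WT 9 rose and 5 fell from E14 to P25, with a median log2 change of 0.46, beside 29.7% and 29.8% of all genes tested and a median of 0.00. In KO 11 rose and 5 fell, with a median of 0.57, beside 30.6% and 29.2% and a median of 0.01. None passed the test between genotypes. Cntn1, a neuronal adhesion molecule, rose from 60.1 ± 29.9 to 296 ± 49.2 CPM in WT, by 2.30 on the log2 scale, and by 2.39 in KO. Cd44, a hyaluronan receptor, rose by 2.17 and 2.10. Mertk, the phagocyte receptor for dying cells, rose by 1.98 in WT and 3.00 in KO, the latter 2.42 without P25 KO replicate 4. Trim16, which acts with galectin-3 at damaged vesicles, rose by 1.48 in WT and 1.30 in KO, and Itgam, an integrin chain of macrophages, by 0.90 in WT and 2.03 in KO. Itgam counts were low at E14, with 150 over the WT libraries and 66 over the KO libraries. Its KO minus WT log2 change at E14 was -1.12 and was not called (edgeR adjusted p = 0.549).

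The partners that fell included receptors of axon guidance and cell adhesion, while the adhesion genes Cntn1, Cd44 and Itgam of the same list rose. Nrp1, a semaphorin receptor, went from 196 ± 42.3 to 34.7 ± 2.98 CPM in KO (SD, n = 4), a log2 change of -2.50, and changed by -2.70 in WT. Plxna4, its plexin partner, changed by -2.09 and -1.92, and Itga5, a fibronectin receptor chain, by -2.33 and -1.89. Egfr, a growth factor receptor, changed by -1.19 in WT and -1.0 in KO, and Cdh2, N-cadherin, by -1.13 and -1.18. All changes named for these lists as passing the test have an edgeR adjusted p under 0.05, from 2.08e-10 to 0.0456.

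**Figure D5:**
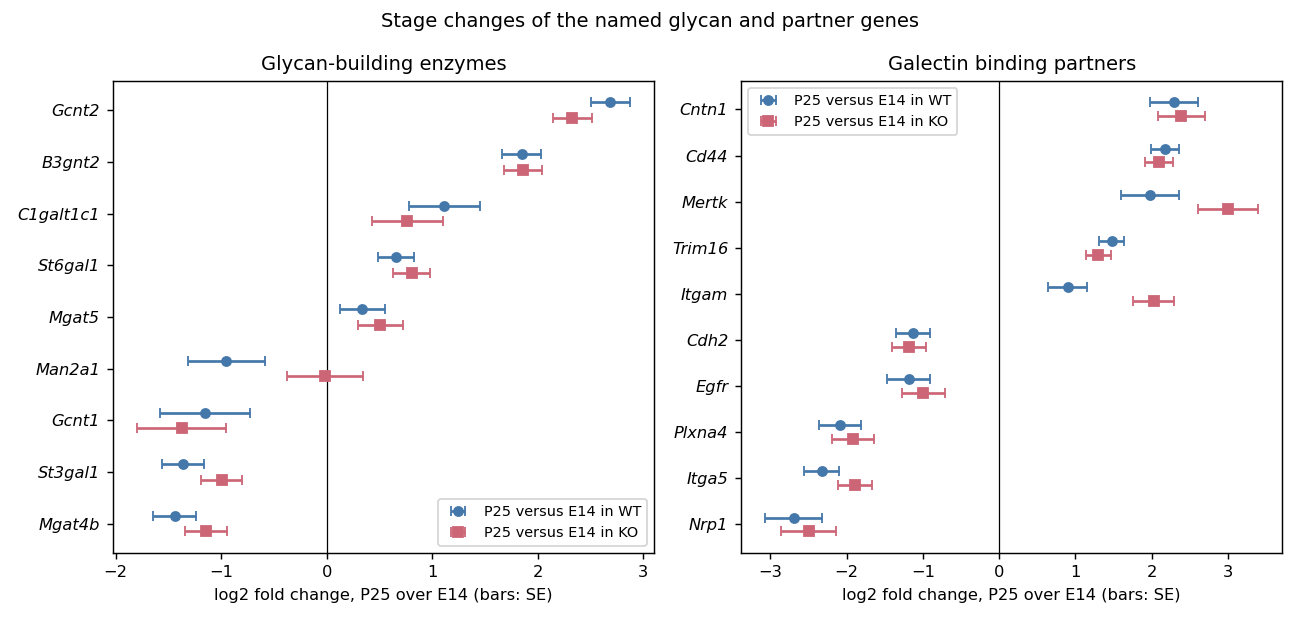
Log2 fold change from E14 to P25, with its SE, of the glycan-building genes and binding partners named in the text, in WT and KO. Gcnt2, B3gnt2, Cntn1, Cd44 and Mertk lie to the right of 0 in both genotypes, and Nrp1, Itga5, Plxna4 and Mgat4b to the left.

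Genes were also ranked by how closely they followed each member within groups, as Pearson correlations of log2 CPM deviations from the group mean over 16 libraries, among 13194 genes. Psph was among the genes closest to Lgals1 (0.973). Lgals3 was most like Trappc1 (0.866) and Selenok (0.847), and Lgals3bp like S1pr2 (0.935) and Jph2 (0.911). The Lgals3 values are less certain, because this gene held only 1 to 32 counts in the E14 libraries. Lgals8 was most like Pms2 (0.897) and Ankrd34c (0.824), Lgals9 like Bcap31 (0.897) and Laptm4a (0.888), and Lgalsl like Slc25a46 (0.990) and Dhx36 (0.988). Lgals4 was most like Phc2 (0.867) and Rcor2 (0.865), with 0.794 and 0.793 without E14 WT replicate 2. All points come from the same libraries, so these are descriptions with no test.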

How the data were processed

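Stranded libraries of polyadenylated RNA were sequenced for 16 trigeminal ganglia, per the labels' protocols. Each deposited value is an estimated count for 1 gene, which the authors gave in whole numbers. Per the submitters' processing notes, the tools were fastp 0.20.0, kallisto 0.46 and DESeq2 1.32.0 and the build GRCm39, with no role or order. Neither the strand setting nor the transcript annotation is given in the sources used here. Since an estimate shares out reads between similar transcripts, near-identical genes are less certain. Of 25719 identifiers, 25614 had a symbol. Positions and transcript lengths come from a GRCm38 annotation and promoters from RefSeq GRCm38.p6, another build than the notes name.

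Titles gave the groups and replicate numbers. In R 4.3.3, edgeR 4.0.16 (TMM scaling, filterByExpr, 1 fit to 16 libraries, quasi-likelihood F test) gave log2 fold changes and p-values, adjusted by Benjamini-Hochberg over 15109 genes; genes with an adjusted p under 0.05 passed, and only these are said to rise or fall. Standard errors (SE) derive from the F statistic. The fit was also run on simulated counts with 200 genes changed, and no result here rests on that run. The simulated libraries were independent and drawn with the fitted spread, without an outlying library or shared animals. Exact permutation tests served for Lgals12. All 8 members were reported; of the glycan and partner lists, the called genes with the largest changes, up to 4 each way per comparison at a mean of at least 1 CPM, were named. The members and lists were chosen with earlier results of these data known. Likeness used log2(CPM + 0.5) and named the 2 closest genes of each member; 1 gene that this took is not reported here. The floor of 3 counts covers counting error only, because amplified reads were not told apart by molecular identifiers. Alternatives were DESeq2 1.42.0, other scalings and filters, a replicate block, summed same-numbered ganglia, compared groups only and leaving out each library. Figures were drawn with matplotlib 3.10.9.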

Additional observations from a re-analysis of the deposited data

How the results depend on the processing

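The 0 galectin genes called between genotypes and in the interaction stayed 0 in every setting run. Over all genes, the E14 KO versus WT count was 3, 5 with DESeq2 and 1 to 5 leaving out each library. The P25 count was 7, 17 with DESeq2, 2 with a replicate block, 11 with same-numbered ganglia summed, 3 with the compared groups only and 3 to 14 leaving out each library. The interaction count was 0, 8 with DESeq2 and 0 to 7 leaving out each library (7 without P25 KO replicate 4). Of calls at P25, 42.9% were higher in KO, and 70.6% with DESeq2. Same-numbered libraries of the 2 genotypes were not treated as paired in the main fit. Their correlations ran from -0.47 to 0.06 at E14 and -0.16 to 0.26 at P25, where 2 of 4 were above 0.1. At E14 0 of 4 libraries matched their own number best, and at P25 1 of 4. So few correlations cannot show that no pairing exists. With the replicate block the Lgals3bp change at E14 was -0.00897, and the stage change of Lgalsl in WT had an adjusted p of 0.129. Uncalled changes that crossed 0 leaving out each library ranged at E14 from -0.13 to 0.31 for Lgalsl and -0.16 to 0.23 for Lgals3bp, and at P25 from -0.043 to 0.43 for Lgals4, -0.10 to 0.072 for Lgals9 and -0.19 to 0.021 for Lgalsl. In the interaction they ranged from -0.39 to 0.050 for Lgalsl, -0.20 to 0.0074 for Lgals9, -0.046 to 0.16 for Lgals8 and -0.40 to 0.00029 for Lgals3bp. The causes were not tested. Gcnt1 and Man2a1 in WT and Mgat5 in KO lost their calls in some settings, with adjusted p of 0.0553 (compared groups only), 0.0816 (replicate block) and 0.0565 (summed ganglia). Depth limits Lgals12 and Lgals3 at E14.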
